A study of Homo sapiens with 4 samples.

Results

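The 40 genes described here are those of glucose uptake, glycolysis and lactate handling together with the core hypoxia regulators and a set of hypoxia-inducible genes. They were chosen by symbol and matched by Ensembl identifier to the rows of the deposited count table, and they are 40 of 58735 genes listed. All 40 passed the filter on low values, 10 or more counts on average in the libraries of a line, in both lines. MDA-MB-231 and SUM159 are human triple-negative breast cancer (TNBC) cell lines, MDA-MB-231 obtained from ATCC and grown in DMEM, SUM159 received from another laboratory and grown in Ham's F12 with insulin and hydrocortisone. Each line was treated for 72 h with 1 μM mebendazole (MBZ), an anthelmintic that binds tubulin, or with its solvent DMSO (0 μM MBZ), and mRNA of each of the 4 conditions was sequenced as 1 library. With 1 library per condition no difference within a line has a replicate check, and differences of culture other than the treatment cannot be told apart from it.

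Glycolysis splits glucose to pyruvate in the cytosol, and lactate dehydrogenase turns pyruvate into lactate, which leaves the cell through monocarboxylate transporters. Tumor cells often run this route at a high rate even where oxygen is present. When oxygen is scarce, the prolyl hydroxylases of the EGLN family no longer mark the alpha subunits of hypoxia-inducible factor (HIF) for degradation, and HIF then binds short DNA elements next to many genes of glycolysis, pH control, mitophagy and collagen modification. This control acts on the HIF protein, which the counts do not measure.

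The libraries held 17143139 to 24897586 counts. Changes are given as log2 ratios of MBZ over DMSO within a line, MDA-MB-231 first and SUM159 second, after edgeR's TMM scaling of the pair of libraries. The range in brackets after a ratio is its 95% counting interval (Clopper-Pearson, covering counting error only). Scaling by library totals instead would move the median of all genes up by 0.27 in MDA-MB-231 and by 0.30 in SUM159 cells, so that every value below is relative to the bulk of genes. The labels as TNBC lines were checked against markers: ESR1 had at most 18 counts in any library, PGR had 0 in all, and ERBB2, the gene of the HER2 receptor, had 1216 to 1996 in every library, so that of the 3 receptor transcripts only ERBB2 was above 18 counts. VIM, a mesenchymal marker, had 20703 to 54409 counts, the epithelial keratins KRT8 and KRT18 had 4197 to 27089, and EPCAM had 6 to 190. Of the markers of other cells, CD3E, HBB and HBA1 had between 0 and 3 counts, PECAM1, an endothelial and leukocyte marker, had 328 to 825, and PTPRC had 8 under DMSO against 23 under MBZ in MDA-MB-231, and 216 against 60 in SUM159. The SUM159 library with DMSO stood apart in proliferation genes: the summed level of 12 such genes was 370.2 CPM of library totals there and 1696 to 2928 in the other 3 libraries. Every SUM159 ratio below rests on this library and, with 1 library per condition, cannot be given without it. Bulk counts cannot tell fewer cells of a kind from less RNA per cell.

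The glycolysis genes mostly had lower levels under MBZ in MDA-MB-231 and were mostly close to or above their DMSO level in SUM159 cells. Of the 40 members, 23 (57.5%) were lower by 1.5-fold or more in MDA-MB-231 cells, where 15.8% of the 15142 genes compared were, and only SLC16A1 was higher (2.5% of the members, against 18.3% of all genes). In SUM159 cells 13 members (32.5%) were at least 1.5-fold higher, where 21.5% of the 15674 genes compared were, and 6 were lower, against 21.7% of all genes. The median log2 fold change of the members was -0.73 in MDA-MB-231 and 0.20 in SUM159 cells, with medians of -0.018 and -0.034 over all genes compared. With scaling by library totals, the split became 3 higher against 18 lower for MDA-MB-231, where 29.1% of all genes were then higher and 7.57% lower. For SUM159 it became 19 higher against 1 lower, with 32.8% and 12.8% of all genes.

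**Figure D1:**
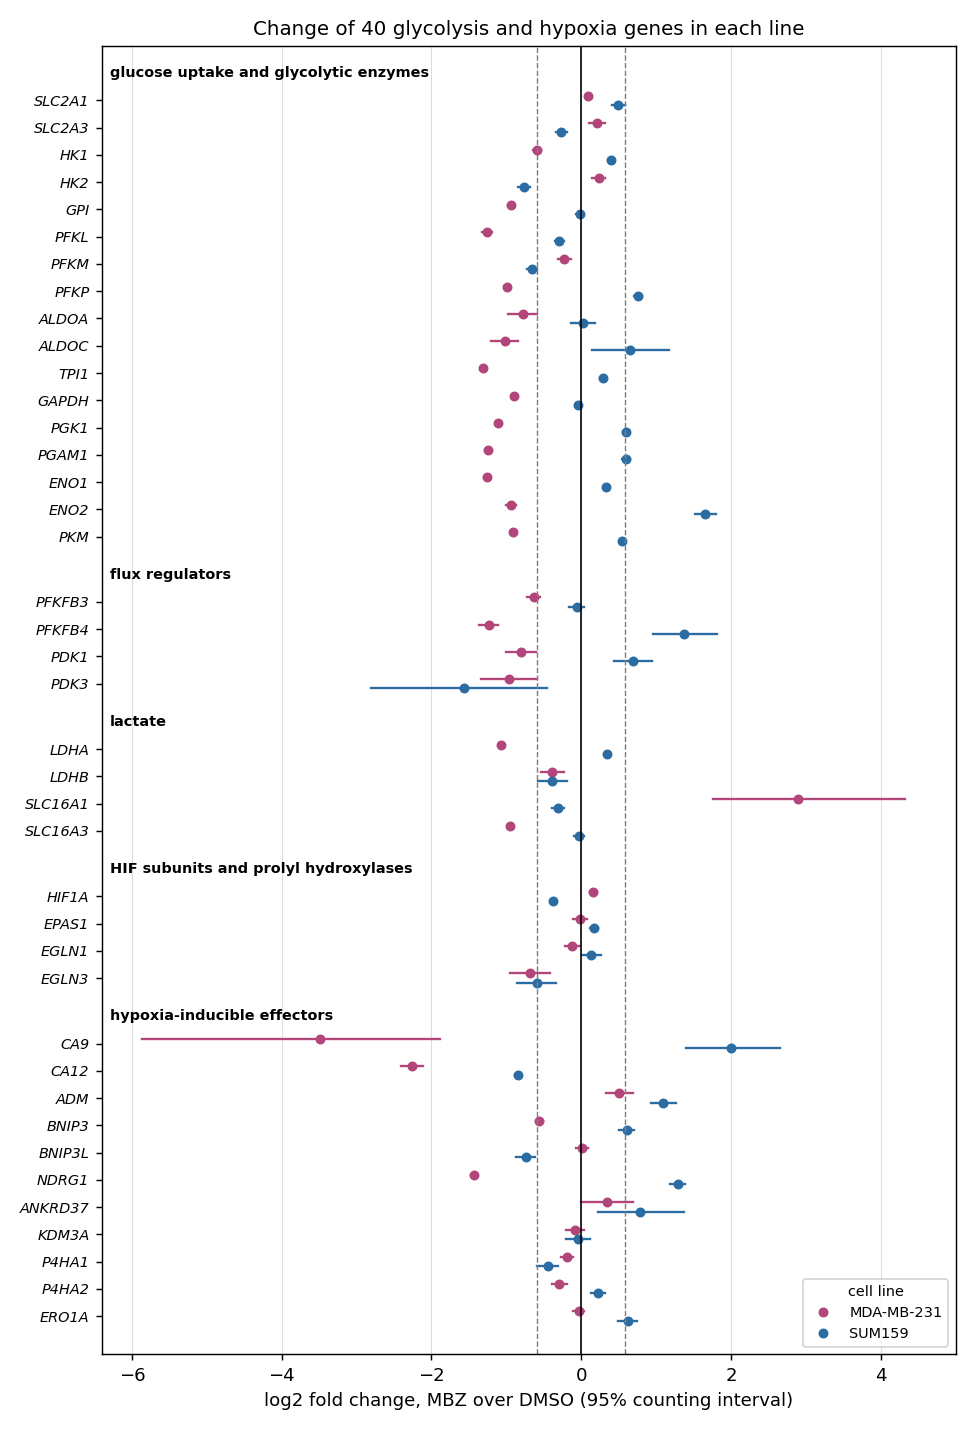
Log2 fold change of MBZ over DMSO (x axis) for the 40 members by role (y axis), with 1 point for each line and bars for the 95% counting interval (dashed lines mark a fold change of 1.5 in either direction). The points of MDA-MB-231 cells lie left of the lower line for 23 members, among them 13 of the 17 transporters and enzymes, and those of SUM159 cells lie right of the upper line for 13.

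The lines diverged for many members. 9 of 40 members (22.5%) were at least 1.5-fold lower in MDA-MB-231 and at least 1.5-fold higher in SUM159 cells, namely PFKP, ALDOC, PGK1, PGAM1, ENO2, PFKFB4, PDK1, CA9 and NDRG1, whereas 3.12% of the 13733 genes compared in both lines showed this pattern. The reverse pattern was seen for 0 members and for 2.92% of all genes. PDK3, EGLN3 and CA12 (7.5% of the members) were lower in both lines, as were 4.71% of all genes, and 0 members were higher in both, against 6.12% of all genes. By counting intervals alone, 17 members (42.5%) lay below 0 in MDA-MB-231 and above 0 in SUM159 cells, against 10.6% of all genes, and 4 members lay the other way round, against 9.40%. Such an interval narrows as reads increase. Many members are abundant, and these shares were not compared at like read numbers. With library totals, 12 members were lower in MDA-MB-231 and higher in SUM159 cells (2.17% of all genes), ADM and ANKRD37 were higher in both lines (11.8% of all genes), and only PDK3 was lower in both (1.61% of all genes). That scaling took HK1, ALDOA, PFKFB3, PDK1 and EGLN3 out of the lower members in MDA-MB-231, and HK2, PFKM, EGLN3, CA12 and BNIP3L out of those in SUM159. It added ADM and ANKRD37 to the higher members in MDA-MB-231, and SLC2A1, HK1, TPI1, ENO1, PKM and LDHA to those in SUM159.

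**Figure D2:**
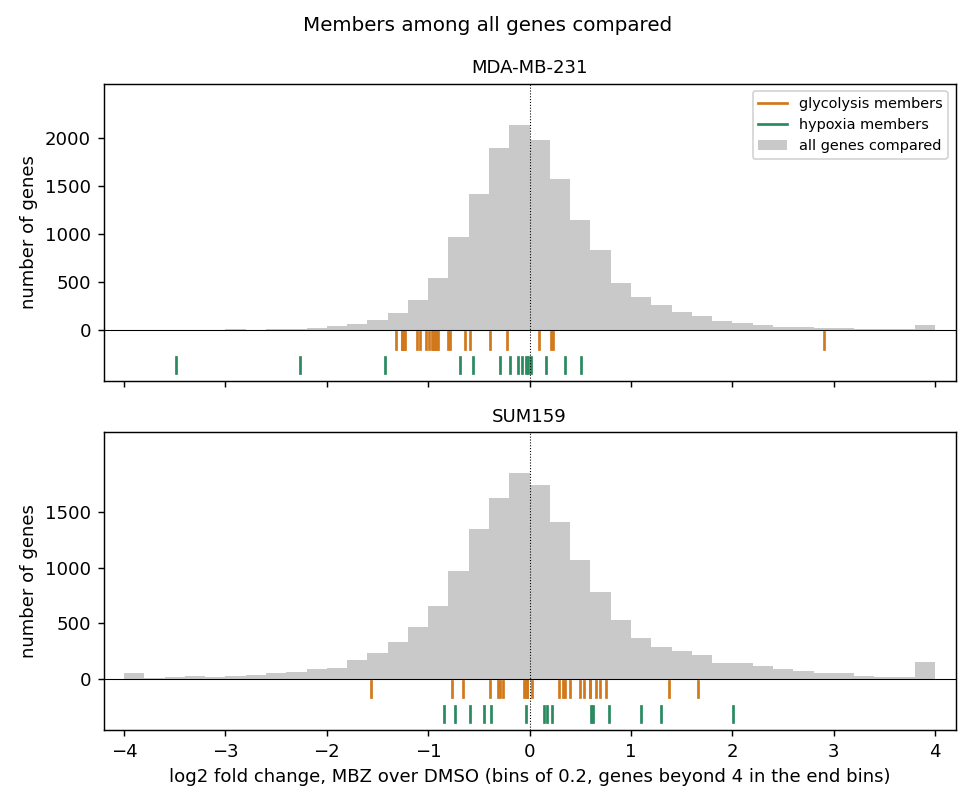
Number of genes (y axis) by log2 fold change of MBZ over DMSO (x axis, bins of 0.2) for all genes compared in each line, with the 25 glycolysis and 15 hypoxia members as ticks under the bars. In MDA-MB-231 cells the glycolysis ticks centre on a median of -0.94, left of the peak of all genes, and in SUM159 cells on 0.29.

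The members took up a sizeable part of each library. All 40 together held 3.19% of the counts under DMSO against 1.97% under MBZ in MDA-MB-231 (95% Wilson intervals 3.18% to 3.19% and 1.96% to 1.98%). In SUM159 cells their share was 1.47% with DMSO and 2.09% with MBZ (intervals 1.47% to 1.48% and 2.09% to 2.10%). The 2 MBZ libraries were therefore closer to each other in this share than the 2 DMSO libraries. Most of it came from the 25 glycolysis genes, with 2.92% and 1.76% in MDA-MB-231 and 1.28% and 1.88% in SUM159 cells. A few enzymes carried these sums: per kilobase of transcript, GAPDH, ENO1 and PKM held the highest levels of the members, in that order, in all 4 libraries. Several of these enzymes, among them GAPDH, PGAM1 and LDHA, have processed pseudogenes of near-identical sequence, and SLC2A3 has the near-identical paralog SLC2A14, so that their counts are uncertain as far as reads fit more than 1 copy.

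A match to the core letters bound by HIF, ACGTG or GCGTG on either strand, was looked for in the 250 bases before a start of each gene in RefSeq's promoters of GRCh38.p14. Where a gene had more than 1 entry, the one nearest the start of its canonical GENCODE transcript was taken. For PGK1 and ENO1 the window lies inside the span that GENCODE gives the gene. A palindromic cacgtg holds ACGTG on both strands. Of the 40 members 36 had an entry, all but SLC2A3, SLC16A1, BNIP3L and NDRG1. ACGTG was present in 18 of them (50.0%), in 18.8% of all 27305 promoters and in 23.9% of the 10345 promoters of genes compared in both lines. GCGTG was present in 41.7% of the members' promoters, in 32.6% of all promoters and in 47.2% of those of genes compared. A match is a description of the letters, not a site. The promoters below belong to 3 abundant enzymes (PGK1, ENO1 and LDHA), to the member with the widest difference between the lines (CA9), to the member with the lowest fold change in the shared test (CA12) and to 1 of the 2 members whose counting intervals lay above 0 in both lines (ADM). They are given 5′ to 3′ on the strand of the gene, with matches to either motif on either strand in capitals. PGK1 lies at chrX:78103998-78104247 (plus strand), ENO1 at chr1:8878687-8878936 (minus strand), LDHA at chr11:18394313-18394562 (plus strand), CA9 at chr9:35673678-35673927 (plus strand), CA12 at chr15:63381847-63382096 (minus strand) and ADM at chr11:10304823-10305072 (plus strand).
PGK1: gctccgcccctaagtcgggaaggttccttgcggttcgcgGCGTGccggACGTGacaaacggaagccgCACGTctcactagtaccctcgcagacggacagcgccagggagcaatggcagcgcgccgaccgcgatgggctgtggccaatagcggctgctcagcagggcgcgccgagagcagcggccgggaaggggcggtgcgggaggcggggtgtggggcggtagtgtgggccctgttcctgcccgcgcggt
ENO1: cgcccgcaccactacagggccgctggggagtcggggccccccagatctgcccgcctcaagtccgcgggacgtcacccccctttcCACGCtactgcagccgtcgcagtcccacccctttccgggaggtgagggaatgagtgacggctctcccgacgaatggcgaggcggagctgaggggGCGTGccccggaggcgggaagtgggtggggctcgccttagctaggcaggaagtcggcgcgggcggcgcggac
LDHA: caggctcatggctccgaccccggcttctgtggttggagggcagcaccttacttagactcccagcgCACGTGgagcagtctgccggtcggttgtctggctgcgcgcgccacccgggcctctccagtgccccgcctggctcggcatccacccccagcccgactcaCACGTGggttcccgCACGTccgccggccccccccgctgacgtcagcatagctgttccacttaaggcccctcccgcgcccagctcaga
CA9: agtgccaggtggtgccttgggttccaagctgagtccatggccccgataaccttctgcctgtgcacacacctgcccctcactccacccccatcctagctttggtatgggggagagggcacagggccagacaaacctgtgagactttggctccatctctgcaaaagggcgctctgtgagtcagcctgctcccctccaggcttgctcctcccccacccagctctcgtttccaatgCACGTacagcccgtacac
CA12: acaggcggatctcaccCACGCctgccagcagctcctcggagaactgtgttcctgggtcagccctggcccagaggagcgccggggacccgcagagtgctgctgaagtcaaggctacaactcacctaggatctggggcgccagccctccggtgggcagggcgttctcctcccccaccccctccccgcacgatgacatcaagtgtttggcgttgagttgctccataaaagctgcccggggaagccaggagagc
ADM: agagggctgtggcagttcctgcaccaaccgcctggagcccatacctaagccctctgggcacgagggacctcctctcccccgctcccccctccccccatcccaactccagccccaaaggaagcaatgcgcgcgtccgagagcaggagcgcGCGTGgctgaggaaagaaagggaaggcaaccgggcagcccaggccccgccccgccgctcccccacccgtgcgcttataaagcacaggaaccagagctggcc
ACGTG occurs in the windows of PGK1, LDHA and CA9, and GCGTG in those of PGK1, ENO1, CA12 and ADM.

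Glucose enters the cell through the GLUT transporters and is trapped by the hexokinases. SLC2A1, the gene of GLUT1 (ENSG00000117394, chromosome 1 from 42925353 to 42958893 of GRCh38, GENCODE), had 15448 reads under DMSO against 13638 under MBZ in MDA-MB-231 and 1905 against 3350 in SUM159. Both log2 ratios, 0.093 (0.059 to 0.13) and 0.50 (0.42 to 0.58), were above 0 beyond counting error and under 1.5-fold. With library totals SLC2A1 was at 0.80 in SUM159 cells, past 1.5-fold. SLC2A3, the gene of the high-affinity transporter GLUT3, had 1348 reads under DMSO against 1294 under MBZ in MDA-MB-231 and 3141 against 3252 in SUM159. In MDA-MB-231 cells SLC2A3 was at 0.21 (0.10 to 0.32), above 0 like SLC2A1, and in SUM159 cells it was at -0.27 (-0.34 to -0.20), a value that turned to 0.035 with scaling by library totals.

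The hexokinases went opposite ways. HK1, the form found in most tissues (ENSG00000156515, chromosome 10 from 69269984 to 69401884), had 8525 reads under DMSO against 4694 under MBZ in MDA-MB-231 and 6927 against 11356 in SUM159. The log2 ratios were -0.59 (-0.64 to -0.54) and 0.40 (0.35 to 0.44). HK2, the inducible form often raised in tumors, had 2387 reads under DMSO against 2324 under MBZ in MDA-MB-231 and 2842 against 2085 in SUM159, or 0.23 (0.15 to 0.32) and -0.76 (-0.85 to -0.68). In each line the hexokinases lay on opposite sides of their DMSO level by counting intervals, and the one above it stayed under 1.5-fold. With library totals HK1 was at 0.70 in SUM159 cells, past 1.5-fold. GPI, which converts glucose 6-phosphate to fructose 6-phosphate, was lower only in MDA-MB-231 cells, with 12917 reads under DMSO against 5585 under MBZ (-0.94), and in SUM159 its 7212 against 8849 reads gave -0.021 (-0.066 to 0.024), not distinguishable from 0 at this depth.

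Phosphofructokinase, the committed step of glycolysis, has a liver, a muscle and a platelet form, and each behaved differently. PFKL (liver) had 7580 reads under DMSO against 2617 under MBZ in MDA-MB-231 and 4101 against 4176 in SUM159, for log2 ratios of -1.26 (-1.33 to -1.20) and -0.29 (-0.35 to -0.23). PFKM (muscle) had 2826 reads under DMSO against 2005 under MBZ in MDA-MB-231 and 4322 against 3404 in SUM159, for -0.22 (-0.31 to -0.14) and -0.66 (-0.73 to -0.60). The platelet form was the only one of the 3 above its DMSO level in SUM159 cells. PFKP had 18874 reads under DMSO against 7842 under MBZ in MDA-MB-231 and 4803 against 10107 in SUM159, for log2 ratios of -0.99 (-1.03 to -0.96) and 0.76 (0.71 to 0.81). With library totals PFKM turned to 0.043 in MDA-MB-231 and PFKL to 0.011 in SUM159 cells.

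Aldolase splits the phosphorylated hexose, and triosephosphate isomerase interconverts its products. ALDOA had 652 reads under DMSO against 314 under MBZ in MDA-MB-231 and 597 against 756 in SUM159, for log2 ratios of -0.78 (-0.98 to -0.59) and 0.024 (-0.13 to 0.18). Its counts are uncertain, since its exons share 1639 bases with a gene annotated on the same strand and reads in 2 genes are not counted in HTSeq's union mode. ALDOC, the brain form, had 868 reads under DMSO against 355 under MBZ in MDA-MB-231 and 50 against 98 in SUM159, for -1.02 (-1.20 to -0.84) and 0.65 (0.15 to 1.18). TPI1 (ENSG00000111669, chromosome 12 from 6867119 to 6870948) had 51126 reads under DMSO against 16983 under MBZ in MDA-MB-231 and 11641 against 17710 in SUM159. Its fold change of -1.32 (-1.34 to -1.29) in MDA-MB-231 cells was the lowest of the 17 transporters and enzymes, and in SUM159 cells it was at 0.29 (0.26 to 0.32).

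The later steps of the route, which yields ATP, held the most abundant members. GAPDH (ENSG00000111640, chromosome 12 from 6534512 to 6538374), widely used as a reference transcript, had 129616 reads under DMSO against 57454 under MBZ in MDA-MB-231 and 63087 against 76594 in SUM159. It was lower in MDA-MB-231 cells by any scaling run (-0.90, or -0.64 with library totals), and in SUM159 cells it was at -0.036 (-0.052 to -0.021) and turned to 0.26 with library totals. PGK1, the kinase of the first ATP-yielding step (ENSG00000102144, chromosome X from 77910739 to 78129295), had 52580 reads under DMSO against 20206 under MBZ in MDA-MB-231 and 9345 against 17574 in SUM159, for log2 ratios of -1.11 (-1.13 to -1.08) and 0.59 (0.56 to 0.63). PGK1 thus passed 1.5-fold in opposite directions in the lines, just inside that limit in SUM159 cells. The mutase PGAM1 did the same, with 23370 reads under DMSO against 8176 under MBZ (-1.24) in MDA-MB-231 and 3831 against 7220 (0.60) in SUM159.

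Enolase and pyruvate kinase close the route. ENO1 (ENSG00000074800, chromosome 1 from 8861000 to 8879190) had 145118 reads under DMSO against 50239 under MBZ in MDA-MB-231 and 48842 against 76604 in SUM159, for log2 ratios of -1.26 (-1.27 to -1.24) and 0.33 (0.32 to 0.35). ENO2, the neuronal enolase and a known hypoxia-inducible gene, had 6460 reads under DMSO against 2794 under MBZ in MDA-MB-231 and 479 against 1884 in SUM159, for -0.94 (-1.001 to -0.87) and 1.66 (1.51 to 1.81). In SUM159 cells ENO2 had the highest fold change of the 25 glycolysis genes. PKM, the pyruvate kinase of most proliferating cells, had 138466 reads under DMSO against 60861 under MBZ in MDA-MB-231 and 42387 against 76711 in SUM159. At -0.91 (-0.93 to -0.90) and 0.54 (0.52 to 0.56), its 2 intervals lay on opposite sides of 0, and the value in SUM159 cells fell short of 1.5-fold. With library totals PKM was at 0.84 in SUM159 cells, past 1.5-fold. Counts per gene do not separate the M1 and M2 splice forms of PKM.

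**Figure D3:**
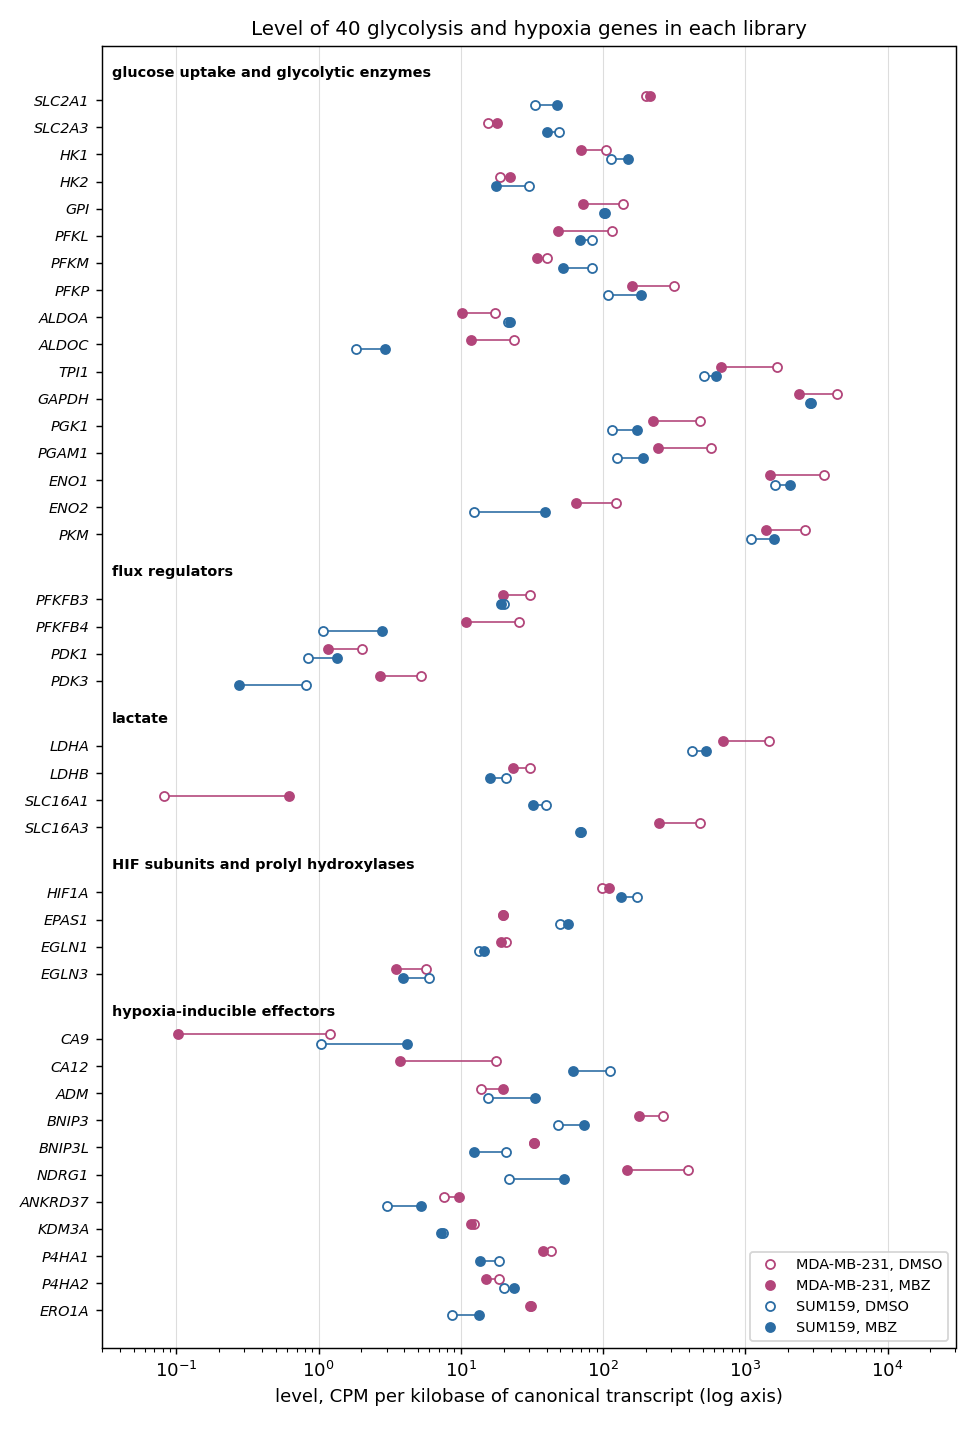
Level of each member in CPM per kilobase of its canonical transcript (x axis, log scale) in the 4 libraries, with open points for DMSO, filled points for MBZ and a line joining the libraries of a cell line. GAPDH, ENO1 and PKM sit at 1091 or above in all 4 libraries, and for PGK1, TPI1 and LDHA the filled points of the lines lie closer together than the open ones.

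All 4 regulators of flux were lower in MDA-MB-231 cells. PFKFB4, a phosphofructokinase-2 that makes the activator of phosphofructokinase, had 2042 reads under DMSO against 719 under MBZ in MDA-MB-231 and 63 against 204 in SUM159, for log2 ratios of -1.23 (-1.36 to -1.11) and 1.38 (0.96 to 1.81). Its relative PFKFB3 had 3121 reads under DMSO against 1664 under MBZ in MDA-MB-231 and 1512 against 1807 in SUM159, for -0.63 (-0.72 to -0.55) and -0.059 (-0.16 to 0.040). Only PFKFB4 of the pair was therefore above its DMSO level in SUM159 cells, though with library totals PFKFB3 turned to 0.24 there. The exons of PFKFB4 overlap those of UCN2 on the same strand, which had 136 against 49 reads in MDA-MB-231 and 3 against 24 in SUM159. PDK1 and PDK3 encode kinases that switch off pyruvate dehydrogenase and so keep pyruvate out of the mitochondrion. PDK1 had 649 reads under DMSO against 308 under MBZ in MDA-MB-231 and 199 against 400 in SUM159, for -0.80 (-1.003 to -0.60) and 0.69 (0.44 to 0.94). PDK3 had 207 reads under DMSO against 88 under MBZ in MDA-MB-231 and 24 against 10 in SUM159, for -0.96 (-1.34 to -0.59) and -1.57 (-2.81 to -0.46), lower in both lines.

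Of the 4 genes of lactate production and export, LDHA and SLC16A3 were lower in MDA-MB-231 cells, SLC16A1 was higher and LDHB stayed under 1.5-fold. LDHA (ENSG00000134333, chromosome 11 from 18394560 to 18408425), the subunit that favors lactate, had 74403 reads under DMSO against 29219 under MBZ in MDA-MB-231 and 15824 against 25035 in SUM159, for log2 ratios of -1.08 (-1.10 to -1.06) and 0.35 (0.32 to 0.37). LDHB, the subunit that favors pyruvate, was at -0.39 (-0.54 to -0.24) and -0.39 (-0.58 to -0.20), alike in the lines and under 1.5-fold in both, with counts that are uncertain because 997 bases of its exons are shared with a same-strand gene. SLC16A3, the gene of the lactate exporter MCT4 (ENSG00000141526, chromosome 17 from 82217934 to 82261129), had 28332 reads under DMSO against 12139 under MBZ in MDA-MB-231 and 3046 against 3724 in SUM159, for -0.95 (-0.98 to -0.92) and -0.026 (-0.096 to 0.043). Its exons share 482 bases with the antisense gene CSNK1D, which had 3213 to 4862 reads in the libraries, and the strand setting of the counting is not known. Of these genes the lines differed most in the second transporter. SLC16A1, the gene of MCT1, had 7 reads under DMSO against 44 under MBZ in MDA-MB-231 and 2516 against 2518 in SUM159. The log2 ratio of 2.90 (1.76 to 4.32) in MDA-MB-231 rests on these few reads, and in SUM159 it was -0.32 (-0.40 to -0.23), or -0.014 with library totals.

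The HIF subunits and prolyl hydroxylases moved little. HIF1A (ENSG00000100644, chromosome 14 from 61695513 to 61748259), the alpha subunit of HIF-1, had 8772 reads under DMSO against 8128 under MBZ in MDA-MB-231 and 11437 against 10971 in SUM159, for log2 ratios of 0.16 (0.12 to 0.21) and -0.38 (-0.41 to -0.34). EPAS1, the alpha subunit of HIF-2, was at -0.016 (-0.10 to 0.072) and 0.17 (0.12 to 0.23), and EGLN1, the main oxygen sensor, at -0.12 (-0.21 to -0.022) and 0.14 (0.018 to 0.26). None of these 3 reached 1.5-fold in either line. The exception of the group was EGLN3, a hydroxylase that HIF itself induces, with 348 reads under DMSO against 179 under MBZ in MDA-MB-231 and 270 against 223 in SUM159. At -0.69 (-0.95 to -0.42) and -0.59 (-0.85 to -0.33) it was lower in both, though with library totals it was at -0.42 and -0.29, under 1.5-fold in both lines.

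The hypoxia-inducible effectors were the most varied group. CA9 and CA12 encode membrane carbonic anhydrases that buffer the acid of tumor cells, and CA9 is one of the transcripts most tied to HIF-1. CA9 (ENSG00000107159, chromosome 9 from 35673928 to 35681159) had 42 reads under DMSO against 3 under MBZ in MDA-MB-231 and 27 against 135 in SUM159. The log2 ratio was -3.49 (-5.87 to -1.89) in MDA-MB-231, on few reads, and 2.001 (1.40 to 2.66) in SUM159, the widest difference between the lines of the 40 members. Its exons share 571 bases with the antisense gene ARHGEF39, which had 275 against 149 reads in MDA-MB-231 and 42 against 210 in SUM159, and the strand setting of the counting is not given in the sources used here, so that reads of the 2 genes may not be separated. CA12 (ENSG00000074410, chromosome 15 from 63321378 to 63381846), with 2460 reads under DMSO against 425 under MBZ in MDA-MB-231 and 11431 against 7911 in SUM159, was lower in both lines, at -2.26 (-2.41 to -2.11) and -0.85 (-0.89 to -0.81), though with library totals its value in SUM159 was -0.55, under 1.5-fold. The carbonic anhydrases thus differed from each other in SUM159 cells and not in direction in MDA-MB-231 cells.

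NDRG1, a stress-responsive gene strongly induced by hypoxia, had 27352 reads under DMSO against 8407 under MBZ in MDA-MB-231 and 1102 against 3358 in SUM159. The log2 ratios of -1.43 (-1.47 to -1.39) and 1.29 (1.19 to 1.39) gave the second widest difference between the lines in that direction, 2.72 on the log2 scale, after CA9. ADM, the gene of the vasodilator peptide adrenomedullin, had 468 reads under DMSO against 551 under MBZ in MDA-MB-231 and 387 against 1031 in SUM159. With 0.51 (0.33 to 0.69) and 1.10 (0.93 to 1.27), it was above 0 in both lines and passed 1.5-fold in SUM159 cells, and with library totals in both (0.77 and 1.40). ANKRD37, a HIF-1 target with an ankyrin repeat, had 135 reads under DMSO against 142 under MBZ in MDA-MB-231 and 40 against 86 in SUM159, for 0.35 (-0.0047 to 0.70) and 0.79 (0.23 to 1.37). Its exons share 909 bases with the antisense gene UFSP2, which had more reads than ANKRD37 in every library (499 against 522 in MDA-MB-231 and 250 against 279 in SUM159), so that the limit given for CA9 holds here too.

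BNIP3 and BNIP3L, receptors that mark mitochondria for removal by mitophagy, differed in direction in SUM159 cells, whereas in MDA-MB-231 cells BNIP3L was not distinguishable from its DMSO level. BNIP3 (ENSG00000176171, chromosome 10 from 131967684 to 131981967) had 9217 reads under DMSO against 5177 under MBZ in MDA-MB-231 and 1256 against 2381 in SUM159, for log2 ratios of -0.56 (-0.61 to -0.51) and 0.61 (0.51 to 0.71). There are 44 annotated pseudogenes of the name BNIP3, so its counts are uncertain as far as reads also fit those. BNIP3L had 2549 reads under DMSO against 2131 under MBZ in MDA-MB-231 and 1210 against 902 in SUM159, for 0.014 (-0.070 to 0.098) and -0.74 (-0.87 to -0.61). ERO1A, an oxidase of disulfide formation in the endoplasmic reticulum, had 3627 reads under DMSO against 2937 under MBZ in MDA-MB-231 and 752 against 1442 in SUM159, for -0.032 (-0.10 to 0.039) and 0.62 (0.49 to 0.75). In contrast, the collagen prolyl hydroxylases and the histone demethylase of the group stayed under 1.5-fold in both lines. P4HA1 was at -0.19 and -0.45, P4HA2 at -0.29 and 0.23, and KDM3A at -0.079 and -0.038 in MDA-MB-231 and SUM159 cells, respectively. With library totals P4HA1 turned to 0.077 in MDA-MB-231 cells, and KDM3A turned to 0.19 in MDA-MB-231 and 0.26 in SUM159 cells.

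A change common to the lines was tested with edgeR's quasi-likelihood test with the 2 lines taking the place of replicates. None of the 40 members passed an adjusted p of 0.05 (Benjamini-Hochberg over 16100 genes), 2 had an unadjusted p under 0.05, and DESeq2's Wald test called 0. Over all genes 1 passed as higher (0.00621%), 0 passed as lower (0.00%) and 1150 had an unadjusted p under 0.05. The 2 members were CA12 and ADM. CA12 had a shared log2 ratio of -1.51 (SE 0.43, edgeR adjusted p = 0.591), lower in 2 of 2 lines, and the adjusted p spanned 0.00743 (no filter on low counts) to 1.00 over the alternatives. For ADM it was 0.84 (SE 0.32, edgeR adjusted p = 0.653), higher in 2 of 2 lines. The residual spread of this fit holds unlike responses of the lines together with differences of library and culture, which cannot be told apart.

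The lines themselves held the members at different levels. With the treatments standing in for replicates of a line, 9 members were lower in SUM159 cells than in MDA-MB-231 and 4 higher by edgeR's quasi-likelihood test, against 9.85% and 11.6% of all genes. Those lower were SLC2A1, ALDOC, PFKFB4, PDK3, SLC16A3, BNIP3, NDRG1, P4HA1 and ERO1A. SLC2A1 was at -2.29 (SE 0.35, adjusted p = 0.00640) by edgeR and SLC16A3 at -2.23 (SE 0.41, adjusted p = 0.0116) on the log2 scale, SUM159 over MDA-MB-231. The higher members were SLC2A3, SLC16A1, EPAS1 and CA12, with SLC2A3 at 1.51 (SE 0.30, adjusted p = 0.0155) and SLC16A1 at 7.09 (SE 0.80, adjusted p = 0.00202) by edgeR. By level per kilobase, SLC2A1 was the more abundant transcript of its pair in MDA-MB-231 cells, and SLC16A3 was so in both lines. SLC16A1 was close to absent in MDA-MB-231 cells, while SLC2A3 was present in both lines. In CPM per kilobase of transcript, SLC2A1 was at 201 under DMSO and 214 under MBZ in MDA-MB-231 cells against 15.5 under DMSO and 18.0 under MBZ for SLC2A3, and in SUM159 cells at 33.4 under DMSO and 47.2 under MBZ against 48.7 under DMSO and 40.5 under MBZ. SLC16A3 was at 480.1 under DMSO and 248 under MBZ in MDA-MB-231 cells against 0.0821 under DMSO and 0.624 under MBZ for SLC16A1, and in SUM159 cells at 69.5 under DMSO and 68.3 under MBZ against 39.8 under DMSO and 32.0 under MBZ.

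The difference between the lines was smaller with MBZ than with DMSO for 26 of 40 members (65.0%), and for 58.6% of all genes. Among the glycolysis genes it was smaller for 19 of 25 (76.0%), and among the hypoxia genes for 7 of 15. On the log2 scale, SUM159 over MDA-MB-231 after TMM scaling of the 4 libraries, ENO1 was at -1.08 with DMSO and 0.49 with MBZ. PGK1 was at -2.00 and -0.32, LDHA at -1.75 and -0.34, and PGAM1 at -2.12 and -0.30. These 4 enzymes were lower in SUM159 cells with DMSO and stood closer to the level of MDA-MB-231 cells with MBZ. CA9 went the other way, at -0.15 with DMSO and 5.32 with MBZ, and CA12 at 2.71 and 4.10.

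Ratios within a library do not depend on how libraries are scaled. Of 15 pairs of related members, 8 shifted in opposite directions in the lines with both counting intervals excluding 0, 3 shifted the same way, and 4 had an interval that included 0 in at least 1 line. No share over other pairs of genes is given here, so these counts cannot be read as particular to related members. The ratio of HK2 to HK1 per length of transcript was 0.179 under DMSO and 0.317 under MBZ in MDA-MB-231 and 0.263 under DMSO and 0.118 under MBZ in SUM159 cells. The log2 shift was 0.82 (0.73 to 0.92) and -1.16 (-1.25 to -1.07), so that the balance moved towards HK2 in one line and towards HK1 in the other. LDHA over LDHB was 47.9 under DMSO and 29.8 under MBZ in MDA-MB-231 and 20.1 under DMSO and 33.3 under MBZ in SUM159 cells, log2 shifts of -0.69 (-0.84 to -0.53) and 0.73 (0.54 to 0.92). The 2 MBZ libraries lay between the DMSO libraries for this ratio. The LDHB counts are uncertain because its exons overlap those of a same-strand gene, so the size of the ratio is uncertain as well. BNIP3L over BNIP3 was 0.123 under DMSO and 0.184 under MBZ in MDA-MB-231 and 0.430 under DMSO and 0.169 under MBZ in SUM159 cells, log2 shifts of 0.57 (0.48 to 0.67) and -1.35 (-1.50 to -1.19). The pairs that moved the same way were PFKP over PFKL (0.27 (0.19 to 0.34) and 1.05 (0.97 to 1.13)), ENO2 over ENO1 (0.32 (0.26 to 0.39) and 1.33 (1.18 to 1.47)) and EGLN3 over EGLN1 (-0.57 (-0.85 to -0.29) and -0.73 (-1.01 to -0.45)).

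**Figure D4:**
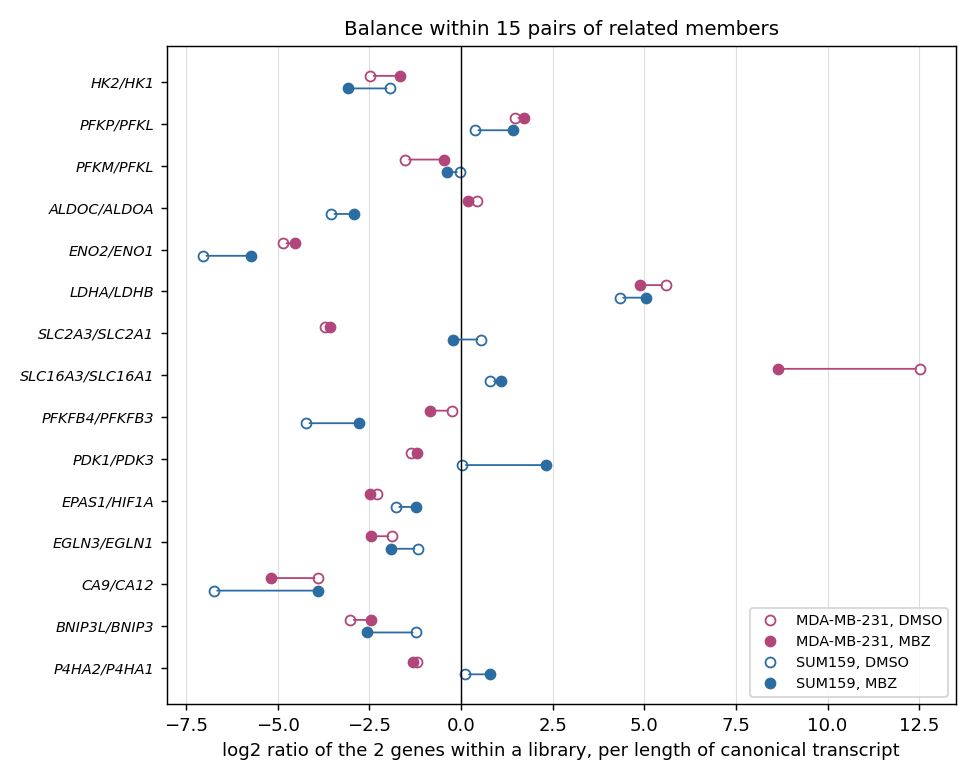
Log2 ratio of the 2 genes of each of 15 pairs within a library, per length of canonical transcript (x axis), with open points for DMSO and filled points for MBZ in each line. Filled points lie on opposite sides of their open points in the 2 lines for HK2/HK1, LDHA/LDHB and BNIP3L/BNIP3, while PFKP/PFKL and ENO2/ENO1 shift to the right in both.

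Other genes of glucose handling and hypoxia were split about evenly between higher and lower levels after TMM scaling. Their shares within a line were somewhat above those of all genes after TMM scaling and near them with library totals. After TMM scaling, their shares changed the same way in both lines were above those of all genes as well. Of 83 further genes of these pathways, 73 could be compared in MDA-MB-231 cells, of which 16 were at least 1.5-fold higher and 16 lower (21.9% each, against 18.3% and 15.8% of all genes). In SUM159 cells 19 of 73 were higher and 18 lower (26.0% and 24.7%, against 21.5% and 21.7%). With library totals, the MDA-MB-231 split was 22 higher against 7 lower (30.1% and 9.6%, against 29.1% and 7.57%) and the SUM159 split 23 against 10 (31.5% and 13.7%, against 32.8% and 12.8%). Of the 71 compared in both lines, 9 were higher in both (12.7%, against 6.12% of all genes), 6 lower in both (8.5%, against 4.71%) and 4 went opposite ways (5.6%, against 6.04%). The hypoxia-inducible genes higher in both included STC2, a secreted glycoprotein, with 50 reads under DMSO against 115 under MBZ (1.47) in MDA-MB-231 and 2466 against 7861 (1.36) in SUM159. HMOX1, the heme oxygenase induced by oxidative stress, had 385 reads under DMSO against 781 under MBZ (1.29) in MDA-MB-231 and 3274 against 10137 (1.31) in SUM159. Of the 4 that went opposite ways, TMEM45A, a hypoxia-inducible membrane protein gene, at 1.19 and -0.99, and ARNT2, a relative of the HIF beta subunit, at 0.64 and -1.61, were higher in MDA-MB-231 and lower in SUM159. Those lower in MDA-MB-231 and higher in SUM159 were ANGPTL4, a secreted lipase inhibitor, at -0.83 and 2.63, and PPFIA4, at -0.99 and 3.23. Their SUM159 values rest on few reads, 6 against 47 for ANGPTL4 and 7 against 83 for PPFIA4, and with library totals ANGPTL4 was at -0.57 in MDA-MB-231, under 1.5-fold. PDP1, the phosphatase that opposes the PDK kinases, was higher in both lines, at 1.37 (1.26 to 1.47) and 0.69 (0.55 to 0.83), while PDK2 was lower in both, at -0.92 (-1.10 to -0.74) and -1.09 (-1.36 to -0.83). TKT, transketolase of the pentose phosphate pathway, was lower in both as well, at -0.83 and -1.90, though with library totals it was at -0.56 in MDA-MB-231, under 1.5-fold.

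Proliferation genes mostly had lower levels in MDA-MB-231 and higher ones in SUM159 cells. In MDA-MB-231 cells 19 of the 25 glycolysis genes (76.0%) were lower, against 15.8% of all genes, and in SUM159 cells 7 (28.0%) were higher, against 21.5% of all genes, and 3 were lower, against 21.7%. With library totals the SUM159 counts were 13 higher (52.0%, against 32.8% of all genes) and 1 lower (4.0%, against 12.8%). Of the 12 proliferation genes, 11 were at least 1.5-fold lower in MDA-MB-231 cells (median -0.89, range -1.82 to -0.35) and 11 at least 1.5-fold higher in SUM159 cells (median 2.51, range 0.53 to 2.92). MKI67, a marker of cycling cells, had 16281 reads under DMSO against 5966 under MBZ in MDA-MB-231 and 885 against 5801 in SUM159. Their part in the differences of the members was not tested.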

How the data were processed

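RNA of 4 libraries, 1 per line and treatment, was analysed. The authors enriched mRNA from total RNA, mapped the reads to GRCh38 (STAR 2.5) and counted them per gene (HTSeq 0.6.1, union mode), and the deposited values are raw counts (versions per the submitters' processing notes). The annotation release and strand setting are not given in the sources used here. Groups came from the labels. The members and gene lists were chosen with earlier results of these data known.

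Log2 ratios came from edgeR 4.0.16 (R 4.3.3, TMM within a line, prior count 0.125). Genes averaging 10 or more counts in a line were compared, and 1.5-fold counted as higher or lower. The shared and line tests used edgeR's quasi-likelihood test (cell line and treatment, TMM over 4 libraries, filterByExpr, adjusted p of 0.05 by Benjamini-Hochberg), with DESeq2 1.42.0 among the alternatives. The common biological coefficient of variation (BCV) was 0.323. P-values measure only the spread between these samples. PCR reads are not independent molecules, so intervals cover counting error only. Levels between genes are CPM per kilobase of the GENCODE release 44 canonical transcript. Exons of 22 members overlap those of another gene on either strand, and 18 members have pseudogenes of their name. Scripts were tested on simulated data. All 40 members could be named. Counts in every library were given for members 1.5-fold changed in at least 1 line.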

Additional observations from a re-analysis of the deposited data

Results flagged for a closer look

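For 21 of the 40 members the counting interval lay on one side of 0 in MDA-MB-231 cells and on the other side in SUM159 cells (52.5% of the members, against 20.0% of the 13733 genes compared in both lines). Counting intervals narrow as reads increase, and these shares were not compared at like read numbers. With 1 library per condition the difference between the lines was not tested, and each value below is the log2 fold change of MBZ over DMSO in SUM159 cells minus that in MDA-MB-231 cells. The members lower in MDA-MB-231 cells and higher in SUM159 cells among the glycolytic enzymes were HK1 (0.99), PFKP (1.75), ALDOC (1.67), TPI1 (1.61), PGK1 (1.70), PGAM1 (1.84), ENO1 (1.59), ENO2 (2.60), PKM (1.45) and LDHA (1.42). Among the regulators they were PFKFB4 (2.61) and PDK1 (1.49). Of the hypoxia genes, CA9 (5.49), NDRG1 (2.72), BNIP3 (1.17), P4HA2 (0.52) and EGLN1 (0.26) had this pattern. The reverse pattern was seen for SLC16A1 (-3.21), HK2 (-0.997), HIF1A (-0.54) and SLC2A3 (-0.48). With scaling by library totals EGLN1 and SLC2A3 no longer had opposite signs in the lines, and the other 19 did.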

How the results depend on the processing

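No paired analysis was possible because the groups share fewer than 2 replicate numbers, each group being 1 library. The only blocking the design allows is by cell line. The test of a shared change carried that term, which sets MBZ against DMSO within a line, and without it the test also called 0 members. With a fold change of 2, 11 members were lower in MDA-MB-231 cells (5.14% of all genes were), 5 higher and 1 lower in SUM159 cells (12.7% and 10.7%), and 0 lower in both (1.09%). With library totals, 3 members were higher in MDA-MB-231 cells, 1 was lower in SUM159 cells, 2 were higher and 1 lower in both, and the medians were -0.47 and 0.50. The 6 members that changed sign with library totals in MDA-MB-231 cells and the 7 in SUM159 cells included 0 of those called. With a mean of at least 100 counts, 0 were higher in MDA-MB-231 cells (10.3% of all genes). With counting intervals in place of a fold, 6 were higher in MDA-MB-231 cells (30.5% of all genes), 22 higher and 13 lower in SUM159 cells (31.5% and 37.0%), 2 higher in both (12.3%) and 8 lower in both (18.3%). At a preset BCV of 0.4, edgeR's exact test (adjusted p under 0.005 and a fold over 2, stricter than 1.5-fold) called 0 members in either line (at most 0.134% of all genes in a direction), and with a BCV of 0.2 it called 2 lower in MDA-MB-231 cells (0.363% of all genes), 2 higher and 0 lower in SUM159 cells (3.64% and 3.11%), and 0 lower in both (0.0583%). Without the filter on low counts (1 count or more), 1 member passed as a shared fall, CA12. The share of all genes that passed in that fit is not given here, so this call has no background beside it. The cause of these changes was not tested. The depth limits CA9, SLC16A1 and PDK3 most, which had 10 or fewer counts in at least 1 library.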
